A study of Homo sapiens with 66 samples.

Results

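The genes examined here are PML, SP100, SP110, SP140, SP140L, and DAXX, which encode proteins of PML nuclear bodies. They were taken by Ensembl gene identifier, version removed, and all 6 were found among the 57820 genes of the deposited count tables. THP-1, a human monocytic leukemia cell line with a Cas9 transgene, was nucleofected with guide RNAs (gRNAs). In the first experiment, a STING-deficient single-cell clone received nontarget gRNA (CTRL) or gRNAs against GFP, ADAR, HNRNPC (hnRNPC-targeted), or ADAR and HNRNPC together (ADAR+hnRNPC), and total RNA depleted of ribosomal RNA was sequenced on days 3, 4, and 5. CTRL cells given IFN-α on day 3 and harvested on day 4 were the positive control, which made 16 groups of 3 replicates. In the second experiment, a wild-type clone obtained by limiting dilution received other gRNAs for CTRL, ADAR, hnRNPC, or ADAR+hnRNPC. Total and digitonin-soluble (cytosolic) RNA of its 4 groups and digitonin-insoluble (nuclear) RNA of hnRNPC-targeted cells were sequenced on day 4, which made 9 groups of 2 replicates. Each clone is a single isolate, and clone and gRNAs both differ between the experiments, so that a difference between experiments cannot be assigned to one of them. Cells with GFP gRNA were a further control. In bulk RNA, a change in the number of expressing cells and a change per cell cannot be told apart.

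PML nuclear bodies are spherical structures of the interphase nucleus. PML, a tripartite motif protein, forms their shell after modification by SUMO, and client proteins enter by binding SUMO. SP100 is the other classical resident of these bodies, and SP110, SP140, and SP140L are its relatives in the speckled protein family, which carries SAND domains and, in its longer isoforms, PHD fingers and bromodomains that read chromatin. DAXX is a SUMO-binding chaperone that deposits histone H3.3 together with ATRX. PML and the SP genes belong to the classical interferon-stimulated genes (ISGs), and the bodies are best known for restricting the genomes of nuclear DNA viruses. ADAR edits adenosine to inosine in double-stranded RNA, and hnRNPC binds uridine tracts in nascent RNA and restrains splicing there.

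The 4 SP genes lie side by side on the long arm of chromosome 2. On GRCh37, the build of the counts, SP110 (ENSG00000135899) spanned chr2:231029902-231090444 on the minus strand, SP140 (ENSG00000079263) chr2:231067826-231177930, SP140L (ENSG00000185404) chr2:231191899-231268447, and SP100 (ENSG00000067066) chr2:231280657-231410321, the last 3 on the plus strand. SP110 and SP140 overlapped head to head by 22619 bases, and SP140L ended 12209 bases before SP100. PML (ENSG00000140464) was at chr15:74287014-74340168 on the plus strand and DAXX (ENSG00000204209) at chr6:33286335-33290793 on the minus strand. Without a stated strand setting of the counting, reads from the shared part of SP110 and SP140 cannot be divided between them, and SP140 and SP140L are close paralogs, so that the low values of SP140 in particular are uncertain.

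RefSeq promoter windows, from 250 bases before to 50 bases after a start on GRCh38.p14, were available for 4 of the genes (6 windows). They are shown because neighbours that moved together in these data shared letters there. The longest run of letters common to the SP110 window and the opposite strand of the SP140L window was GGAAAAGAAAAGTGAAA, 17 bases long. It was found by comparing these windows and then searched on both strands of all 35116 windows, of which 3 held it, those of SP110, SP140, and SP140L. The match of SP110 and SP140 is the same stretch, which begins 106 bases before the SP110 start and 10 bases before the SP140 start, and so spans the latter. In the following windows of 30 bases, all printed on the minus strand, capitals mark this run in the first pair and the 8-letter core AANNGAAA, with N for any base, in SP100.
SP110, chr2:230225719-230225748: caaagaGGAAAAGAAAAGTGAAAttgccta
SP140L, chr2:230327100-230327129: caaatggGGAAAAGAAAAGTGAAAgtattt
SP100, chr2:230416126-230416155: ggggaaaagagAAGTGAAAgtatttaacct
These windows lay at -112 to -83 from the start of SP110, -93 to -64 from that of SP140L, and -75 to -46 from that of SP100. The core AANNGAAA, which overlaps the run and is contained in sequences bound by interferon regulatory factors, occurred in 22.8% of all windows. The interferon-stimulated response element core, present in 3.57% of all windows, and TTCNNNGAA, the palindrome bound by STAT dimers, present in 7.66%, were searched on both strands as well. The former was in none of the 6 windows, and TTCNNNGAA was in 1, that of a downstream start of SP110. Other spacings of the response element core, and bases outside these windows, were not searched.

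Gene counts per library ranged from 95107690 to 152829008 in the first experiment and from 49666958 to 73873756 in the second. Levels are given as CPM, gene counts relative to the library total, scaled by TMM factors, and calls in edgeR required both a log2 fold change of 1 or more in size and an adjusted p no higher than 0.05. On day 5, HNRNPC mRNA fell by 1.39 on the log2 scale with hnRNPC gRNA and by 1.08 with both gRNAs, whereas ADAR mRNA of the first experiment was not lower after ADAR targeting (log2 fold change -0.03 on day 5) and gave no check of these gRNAs. In total RNA of the second experiment, ADAR mRNA fell by 0.77 with ADAR gRNA and HNRNPC mRNA by 0.69 with hnRNPC gRNA. With both gRNAs, ADAR mRNA was at -0.13 there (edgeR, adjusted p = 0.54) and at 1.75 above CTRL on day 5 of the first experiment. Of 10 monocytic markers in the first experiment, CD33 (47.6 to 73.2 CPM), SPI1 (42.3 to 70.8), CTSS (up to 318.6), CSF1R, FCGR1A, ITGAM, and LYZ (69.6 to 597.5) exceeded 10 CPM in every library. MPO was at 3.84 CPM or more, CD14 at 0.0991 to 3.93 CPM, and CD68 at most at 0.292 CPM. Of 15 markers of B, T, erythroid, fibroblast, and epithelial cells, 12 never reached 1 CPM in either experiment. Of the others, PAX5 was at 33.5 to 62.3 CPM in ADAR+hnRNPC-targeted cells on day 5 and at 18.9 to 24.8 with IFN-α, against 2.78 to 3.43 in CTRL cells on day 4, and reached 22.6 CPM in the second experiment. Its part in the results was not tested.

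In CTRL cells on day 4, the order of the levels per kilobase of annotated exon was DAXX, SP100, SP140L, PML, SP110, SP140. The CPM per kilobase was 4.60 ± 1.59 (SD, n = 3) for DAXX, 3.87 ± 0.155 for SP100, and 2.15 ± 0.102 for SP140L. PML had 1.70 ± 0.175, SP110 1.22 ± 0.0433, and SP140 0.128 ± 0.0131. DAXX and SP100 did not differ beyond their spread, whereas SP140 was the lowest by far. With averages of 0.02 and -0.27 log2 CPM in the experiments, SP140 missed the minimum of 0.5 and was not tested, so that 5 of 6 genes were tested in each experiment. In ADAR+hnRNPC-targeted cells on day 5, SP110 led with 31.2 ± 6.14 CPM per kilobase, ahead of SP140L with 16.85 ± 4.08 and SP100 with 15.67 ± 3.36, which did not differ beyond their spread. PML followed with 9.26 ± 1.29, then DAXX with 4.24 ± 1.415 and SP140 with 0.429 ± 0.0218. SP110 had thus moved from the fifth place to the first. Counts were over GENCODE V19 exons and lengths from GENCODE v44, so the order between genes is approximate.

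**Figure D1:**
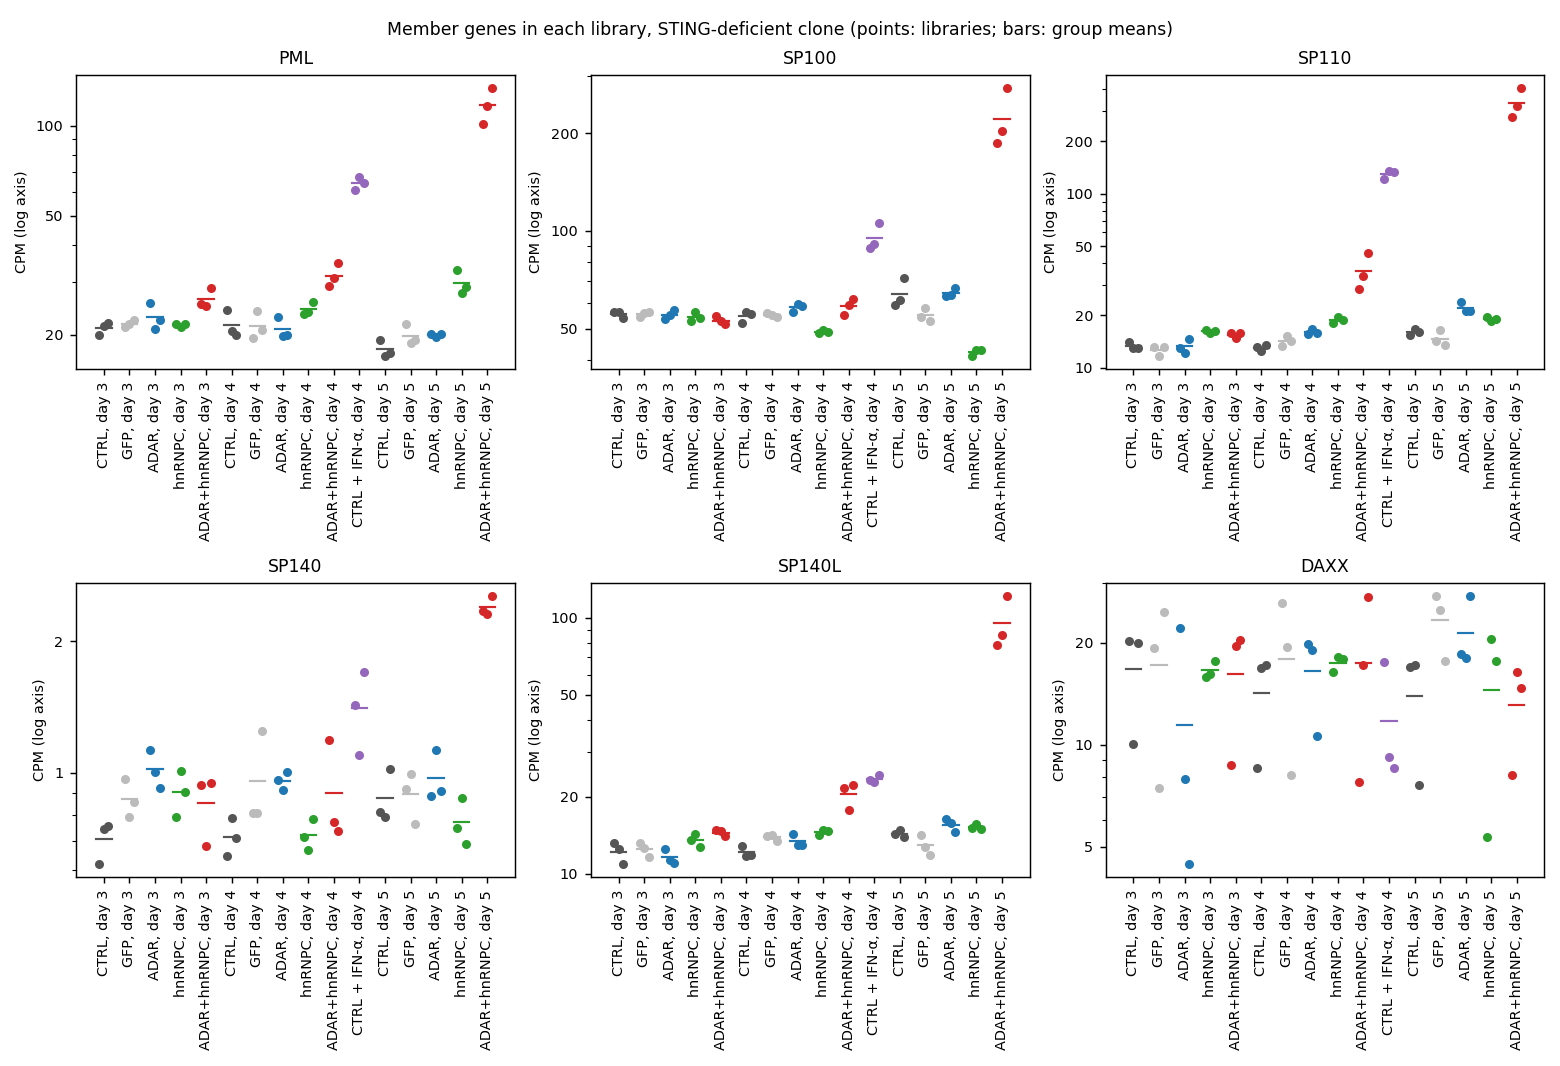
CPM on a log axis of each gene in the 48 libraries of the STING-deficient clone, by gRNA group and day, with points for libraries and bars for means of 3. PML, SP100, SP110, and SP140L are highest in all 3 ADAR+hnRNPC libraries of day 5 (SP110 276 to 405 CPM), while the DAXX libraries of a group lie far apart (4.45 to 27.4 CPM over all groups).

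The positive control asks which of these genes answer IFN-α in this clone. SP110 and PML were called, SP100 and SP140L rose by less than 2-fold, and DAXX showed no call. SP110 was at 121.8, 134.9, and 133.4 CPM in the 3 IFN-α libraries and at 13.1, 12.54, and 13.4 in CTRL cells of day 4, and the groups lay far apart. Its log2 fold change was 3.32 ± 0.12 (SE, n = 3 per group; adjusted p = 4.1e-24). PML was at 61.1, 67.6, and 64.3 CPM against 24.1, 20.6, and 20.02, with all IFN-α libraries above all CTRL libraries (log2 fold change 1.58 ± 0.09, adjusted p = 8.1e-17). SP100 had 88.4, 91.3, and 105.5 CPM against 52.2, 56.4, and 55.4, again without overlap (0.80 ± 0.08, adjusted p = 5.4e-10). SP140L had 23.2, 22.8, and 24.4 CPM against 12.8, 11.8, and 11.9 (0.95 ± 0.10, adjusted p = 1.0e-09), just under the fold required for a call. DAXX had 17.5, 9.22, and 8.51 CPM against 8.53, 16.9, and 17.2, and the groups overlapped (-0.28 ± 0.50, adjusted p = 0.76). SP140, not tested, was at 1.10 to 1.70 CPM against 0.644 to 0.790. The call reached 2 of 5 genes, beside 1.32% of all 13193 genes tested.

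After ADAR targeting alone, none of the 5 genes was called on any day in the STING-deficient clone. SP110 had 23.8, 21.2, and 21.2 CPM on day 5, above the 15.5, 16.6, and 15.98 of CTRL cells, at a log2 fold change of 0.46 ± 0.11 (adjusted p = 0.0075). On day 4, its log2 fold change was 0.30 ± 0.11 (adjusted p = 0.20). The other 4 genes had log2 fold changes from 0.01 (SP100) to 0.61 ± 0.50 (DAXX) on day 5, with adjusted p from 0.25 upward. At an unadjusted p under 0.05, 0, 1, and 1 genes remained on days 3, 4, and 5, and DESeq2 and limma-voom called none. ADAR targeting called 0, 0.0682, and 0.273% of all genes on these days; on day 3, where edgeR called 0 genes in all, 535 genes had an unadjusted p under 0.05 and neither other tool made a call.

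After hnRNPC targeting alone, PML and SP100 moved apart. On day 5, PML was at 33.0, 27.5, and 28.8 CPM against 19.2, 17.0, and 17.4 in CTRL cells (log2 fold change 0.74 ± 0.09, adjusted p = 9.4e-09). SP100 was at 41.4, 43.2, and 42.9 CPM against 59.2, 61.1, and 71.8 and was lower in every library (-0.59 ± 0.08, adjusted p = 5.7e-08). Both changes were under 2-fold and therefore not called. With GFP gRNA on day 5, SP100 was at 52.9 to 58.0 CPM, likewise below every CTRL library (-0.22 ± 0.08, edgeR, adjusted p = 0.087). PML was at 0.15 ± 0.09 there (adjusted p = 0.32). The hnRNPC libraries of SP100 lay below those with GFP gRNA, and those of PML lay above. SP110 was highest relative to CTRL on day 4, at 18.005, 19.6, and 18.9 CPM against 13.1, 12.54, and 13.4 (0.53 ± 0.11, adjusted p = 9.3e-05), and was at 0.24 ± 0.11 on day 5 (adjusted p = 0.049). For SP140L, the differences on the 3 days were 0.15, 0.26, and 0.08 on the log2 scale. None of the 5 genes was called on a day by edgeR, DESeq2, or limma-voom, with 1, 2, and 3 genes at an unadjusted p under 0.05, beside 1.04, 3.22, and 7.72% of all genes called by edgeR. Cells with GFP gRNA called none of the 5 genes either (0, 0, and 1 at an unadjusted p under 0.05 on days 3, 4, and 5, and none by the other tools), beside 0.0227, 0, and 0.212% of all genes. On day 4, where GFP gRNA gave 0 calls over all genes in edgeR, 908 genes had an unadjusted p under 0.05, DESeq2 called 1, and limma-voom called 0.

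Combined ADAR+hnRNPC targeting addressed whether loss of both factors moves these genes beyond either loss. SP110 was the first gene called, on day 4, and changed most, SP140L, PML, and SP100 were called on day 5, and DAXX was never called. On day 3, SP110 was at 15.8, 14.8, and 15.9 CPM against 14.1, 13.02, and 12.98 in CTRL cells (log2 fold change 0.21 ± 0.11, adjusted p = 0.15). Of the 5 genes, PML alone passed an adjusted p of 0.05, at 0.32 ± 0.09 (adjusted p = 0.0074), and no gene of the 5 was called (2 at an unadjusted p under 0.05, and none by DESeq2 or limma-voom). The share of all genes called on day 3 was 1.17%.

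On day 4, SP110 was at 28.2, 33.7, and 45.7 CPM, all above the highest CTRL library at 13.4, and was called (log2 fold change 1.46 ± 0.11, adjusted p = 5.8e-14). SP140L, at 21.6, 17.8, and 22.3 CPM against 11.8 to 12.8, rose by 0.76 ± 0.10 (adjusted p = 3.0e-08). PML, at 29.1, 30.9, and 34.6 CPM against 20.02 to 24.1, rose by 0.55 ± 0.09 (adjusted p = 3.6e-06). SP100 was at 55.3, 59.1, and 61.8 CPM, and its range overlapped that of CTRL cells (0.10 ± 0.08, adjusted p = 0.28). This was 1 gene of 5, beside 4.71% of all genes.

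On day 5, 4 of 5 genes were called higher, beside 15.6% of all genes in either direction. The comparisons of a day share their CTRL libraries. SP110 was at 276.5, 318.1, and 405.0 CPM, a mean 20.8 times that of CTRL cells (log2 fold change 4.38 ± 0.12, adjusted p = 2.4e-27). SP140L was at 78.3, 86.0, and 121.4 CPM against 14.4, 14.8, and 13.9 (2.73 ± 0.10, adjusted p = 1.1e-23). No library of the treated group came near those of the controls. PML was at 101.2, 116.9, and 133.9 CPM against 17.0 to 19.2 (2.72 ± 0.10, adjusted p = 2.1e-24). SP100 was at 186.1, 202.9, and 275.4 CPM against 59.2 to 71.8 (1.79 ± 0.08, adjusted p = 5.3e-21). DAXX was at 8.12, 16.4, and 14.7 CPM against 17.0, 17.2, and 7.60, with overlapping groups (-0.09 ± 0.50, adjusted p = 0.88). SP140 was at 2.35, 2.30, and 2.53 CPM against 0.813, 0.793, and 1.02, a low level throughout. The third replicate of the ADAR+hnRNPC group had the highest value of SP110, SP140L, PML, SP100, and SP140 on this day.

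**Figure D2:**
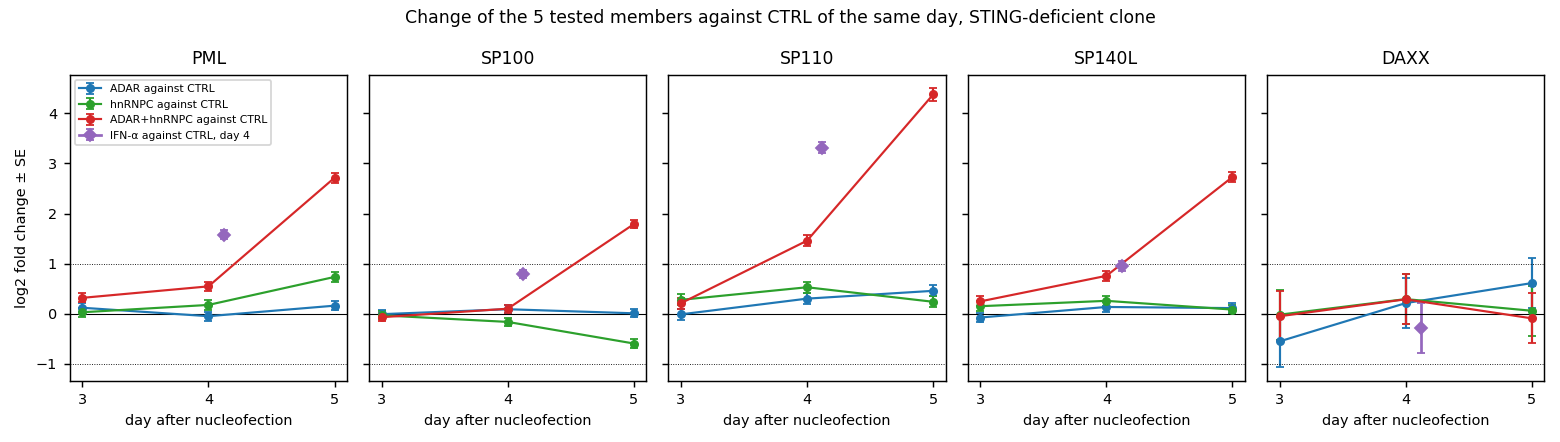
Log2 fold change ± SE of the 5 tested genes against CTRL cells of the same day (y axis) by day after nucleofection (x axis), for ADAR, hnRNPC, and ADAR+hnRNPC gRNAs, with IFN-α on day 4 as a diamond and dotted lines at 1 and -1. Lines for ADAR+hnRNPC reach 4.38 for SP110, 2.73 for SP140L, 2.72 for PML, and 1.79 for SP100 on day 5, and the DAXX error bars are the widest (SE 0.50 for both gRNAs on day 5).

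The effect of combined targeting grew between days in a test of the difference itself. Day 5 minus day 4 was 2.92 ± 0.15 for SP110, 2.17 ± 0.13 for PML, 1.97 ± 0.14 for SP140L, and 1.69 ± 0.11 for SP100, each called, with the largest adjusted p at 2.0e-14 (3.81% of all genes called). Day 4 minus day 3 was 1.25 ± 0.15 for SP110 (adjusted p = 3.7e-07), the 1 gene called, and 0.51 ± 0.14 for SP140L (adjusted p = 0.011), 0.23 for PML, and 0.17 for SP100, beside 1.16% of all genes. Within ADAR+hnRNPC-targeted cells, day 5 against day 3 called the same 4 genes, from 2.06 for SP100 to 4.43 for SP110, beside 9.83% of all genes. In CTRL cells, the same days differed by 0.26 for SP110, 0.23 for SP140L, 0.21 for SP100, and -0.24 for PML, with adjusted p from 0.052 upward. No gene of the 5 was called there (4 at an unadjusted p under 0.05, none by DESeq2 or limma-voom), beside 0.667% of all genes.

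Against ADAR-targeted cells of the same day, combined targeting called no gene on day 3, SP110 on day 4, and SP110, SP140L, PML, and SP100 on day 5. On day 5, the log2 fold changes were 3.92 ± 0.12 for SP110, 2.62 ± 0.10 for SP140L, 2.55 ± 0.10 for PML, and 1.78 ± 0.08 for SP100, and that of DAXX was -0.70 ± 0.50. On day 4, SP110 was at 1.16 ± 0.11 (adjusted p = 2.4e-11). Without the third ADAR+hnRNPC replicate of day 4, this value was 0.94 and no longer called. The shares of all genes called were 0.91, 4.06, and 12.3% on days 3, 4, and 5, and on day 3, 3 of the 5 genes had an unadjusted p under 0.05 and no tool called one.

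The interaction, the part of the ADAR+hnRNPC effect beyond the sum of the single effects on the log2 scale, was tested in 12 libraries per day and called by adjusted p alone. On day 5, it was 3.66 ± 0.15 for SP110 (adjusted p = 2.9e-10), 2.51 ± 0.17 for SP140L (3.7e-08), 2.35 ± 0.16 for SP100 (3.5e-08), and 1.80 ± 0.13 for PML (6.4e-08). Of all genes, 48.3% were called by this rule on day 5, and 6.11% when an absolute interaction of at least 1 was also required, which these 4 genes passed. SP100 had the larger interaction of SP100 and PML although its change against CTRL cells was smaller, since it was lower and PML higher after hnRNPC targeting alone. The interaction of DAXX was -0.78 ± 0.57 (adjusted p = 0.27). Without the first hnRNPC replicate, it was -1.11 and passed (adjusted p = 0.048), and it passed without the filter on low counts at -0.78 ± 0.13 (adjusted p = 9.7e-08). DAXX ranged from 5.35 to 20.5 CPM among the hnRNPC libraries of day 5. The SE without the filter is small for such a spread, so no weight is put on that pass.

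On day 4, the interaction was 0.63 ± 0.18 for SP110 (adjusted p = 0.070), 0.42 ± 0.12 for PML (0.075), 0.37 ± 0.12 for SP140L (0.10), and 0.18 ± 0.08 for SP100 (0.23). None of these passed in the main edgeR fit, 4 had an unadjusted p under 0.05, limma-voom called none, and DESeq2 called 3, PML, SP110, and SP140L. Over all 13193 genes, DESeq2 called 1717 and limma-voom 525. EdgeR called PML (0.49) without the first ADAR replicate, SP110 (0.78) without the first ADAR+hnRNPC replicate, and SP140L (0.46) without the second. With a replicate block, edgeR called all 4 of these genes, but which replicate numbers share a day is not given. The share of all genes called with the block is not given here either. Of all genes, the main edgeR fit called 4.03%, or 0.849% with an absolute interaction of at least 1. On day 3, edgeR called 0 of the 5 genes and 0% of all genes (0 of 5 and 1338 of all genes at an unadjusted p under 0.05), and DESeq2 called 40 genes in all, none of them of the 5, and limma-voom 0.

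Combined targeting was also set against IFN-α on the same day. On day 4, SP110 was 1.86 ± 0.11 (adjusted p = 4.7e-17) and PML 1.03 ± 0.09 (adjusted p = 3.8e-12) lower on the log2 scale in ADAR+hnRNPC- than in IFN-α-treated cells, both called, beside 6.2% of all genes. The call of PML was at the edge, as DESeq2 gave -0.97, and edgeR gave -0.97 without the first ADAR+hnRNPC and -0.99 without the second IFN-α replicate. SP100 was lower by 0.70 ± 0.08, and SP140L, at 17.8 to 22.3 CPM against 22.8 to 24.4, by 0.19 ± 0.10 (adjusted p = 0.088). Of these genes, SP140L thus came nearest to its IFN-α level on day 4. By day 5, means of ADAR+hnRNPC-targeted cells were 4.06 times the IFN-α mean of day 4 for SP140L, 2.56 times for SP110, 2.33 times for SP100, and 1.82 times for PML, a description across days without a test.

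The wild-type clone gave a second set of gRNAs. CTRL cells of this clone had SP110 at 37.5 and 31.7 CPM and PML at 33.0 and 43.4 in total RNA, above the CTRL libraries of the STING-deficient clone, in tables that were not normalized together. ADAR targeting alone called SP110 here, at 102.7 and 76.1 CPM (log2 fold change 1.37 ± 0.24, n = 2 per group, adjusted p = 0.0017). SP140L, at 34.5 and 27.9 CPM against 18.3 and 16.1, rose by 0.86 ± 0.17 (adjusted p = 0.0038) without a call, which it reached at 1.01 without the second ADAR replicate. PML was at 0.03 ± 0.22 (adjusted p = 0.95), and SP100 at 0.44 ± 0.16 (adjusted p = 0.083). This was 1 of 5 genes, beside 2.93% of 13650 genes tested. After hnRNPC targeting, no gene of the 5 was called by any of the 3 tools and none had an unadjusted p under 0.05, beside 0.733% of all genes. SP110 was at 0.49 ± 0.24, SP100 at -0.09 ± 0.16, and PML at 0.02 ± 0.22.

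With both gRNAs, SP110 was at 183.9 and 114.1 CPM in total RNA (log2 fold change 2.10 ± 0.25, adjusted p = 1.9e-05) and SP140L at 47.2 and 33.5 (1.23 ± 0.17, adjusted p = 8.8e-05), both called, beside 4.29% of all genes. SP140L was at 0.97 without the first ADAR+hnRNPC replicate and no longer called. SP100 (0.80 ± 0.16, adjusted p = 0.0017) and PML (0.76 ± 0.22, adjusted p = 0.014) stayed under 2-fold, except that SP100 was called at 1.03 without the second ADAR+hnRNPC replicate and PML at 1.02 without the second CTRL replicate, and DAXX was at -0.25 ± 0.20. The median of all genes in this comparison was -0.12. The interaction was 0.25 ± 0.33 for SP110, 0.21 ± 0.24 for SP140L, 0.45 ± 0.23 for SP100, and 0.71 ± 0.31 for PML (adjusted p = 0.097). EdgeR and limma-voom called none of the 5 (1 at an unadjusted p under 0.05), DESeq2 called SP100 and PML, and edgeR called PML at 0.89 without the first CTRL replicate. Of all 13650 genes, edgeR called 23.1%, or 4.85% with an absolute interaction of at least 1. DESeq2 called 3027 of all genes and limma-voom 3307. Differences between the clones were not tested.

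**Figure D3:**
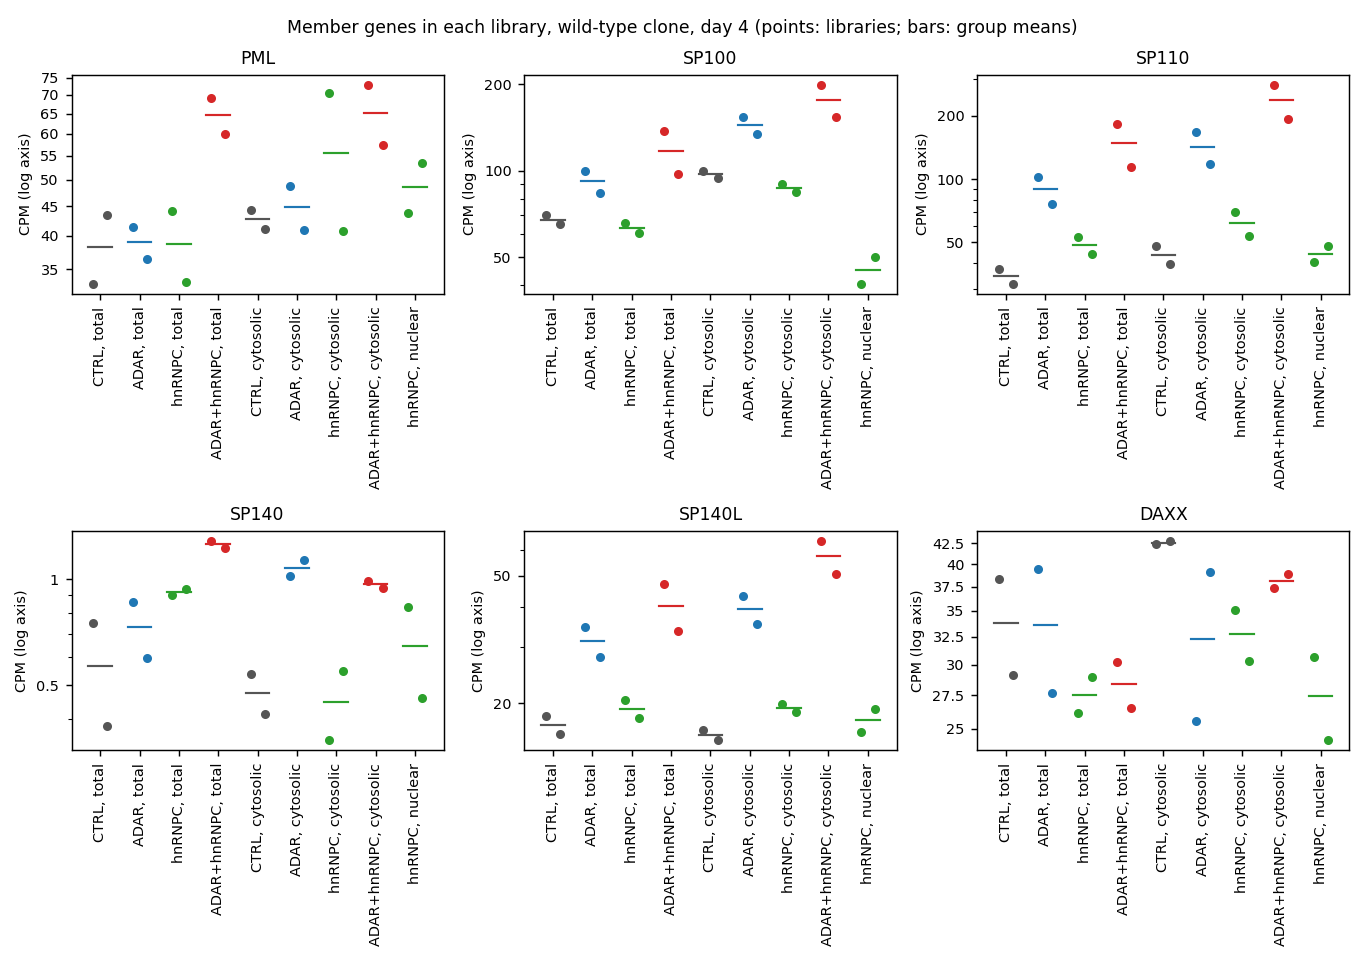
CPM on a log axis of each gene in the 18 libraries of the wild-type clone, by gRNA group and RNA fraction, with points for libraries and bars for means of 2. SP100, SP110, and SP140L are above CTRL cells in both ADAR and both ADAR+hnRNPC libraries of total and of cytosolic RNA (SP110 at 282 and 194 CPM in cytosolic ADAR+hnRNPC RNA).

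Cytosolic RNA showed whether the changes reached the compartment where mRNA is translated. In cytosolic RNA, SP110 was at 282.2 and 194.1 CPM after combined targeting against 47.9 and 39.5 in CTRL cells (log2 fold change 2.45 ± 0.25, adjusted p = 1.5e-06). SP140L was at 64.2 and 50.6 CPM against 16.5 and 15.3 (1.85 ± 0.17, adjusted p = 7.1e-07). These were the 2 genes called of 5, beside 7.9% of all genes. SP100 rose by 0.86 ± 0.16 (adjusted p = 0.00057) and PML by 0.61 ± 0.22 (adjusted p = 0.033), and SP100 was called at 1.04 without the second ADAR+hnRNPC replicate. The difference between the cytosolic and the total effect was 0.62 ± 0.24 for SP140L (adjusted p = 0.20) and 0.34 ± 0.33 for SP110 (adjusted p = 0.68), and no gene of the 5 passed in edgeR (1 at an unadjusted p under 0.05), beside 2.59% of all genes. In hnRNPC-targeted cells, cytosolic RNA gave log2 fold changes from -0.38 (DAXX) to 0.50 (SP110) against CTRL cells without a call in edgeR (0 at an unadjusted p under 0.05), beside 0.484% of all genes.

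Across the 4 gRNA groups, cytosolic against total RNA was 0.56 ± 0.08 for SP100 and 0.51 ± 0.12 for SP110, against a median of 0.17 over all genes. PML (0.22), DAXX (0.24), and SP140L (0.19) lay close to that median. No gene of the 5 was called (4 at an unadjusted p under 0.05, none by DESeq2 or limma-voom), beside 8.89% of all genes. In hnRNPC-targeted cells, cytosolic SP100 was at 89.6 and 84.4 CPM and nuclear SP100 at 40.4 and 50.1, without overlap (0.94 ± 0.16, adjusted p = 7.1e-05, median of all genes 0.27), and was called at 1.09 without the second nuclear replicate. SP110 was at 70.0 and 53.7 CPM in the cytosol and 40.3 and 48.03 in the nucleus (0.49 ± 0.24, adjusted p = 0.077). EdgeR called none of the 5 in this comparison (1 at an unadjusted p under 0.05, none by the other tools), beside 30.5% of all genes. MALAT1, a nuclear long noncoding RNA, was at 2024 to 2265 CPM in the nuclear and 696 to 940 in the cytosolic RNA of these cells.

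DAXX behaved unlike the other genes in its spread. In the first experiment, the highest library of a group had a median of 2.04 times the lowest for DAXX and up to 4.95 times, against medians of 1.06 for SP100, 1.10 for SP110, 1.12 for SP140L, and 1.16 for PML. ADAR-targeted cells of day 3, for example, had 22.0, 7.89, and 4.45 CPM, from 2320, 887, and 497 counts. In the second experiment, all libraries lay between 24.2 and 42.8 CPM. The precision of DAXX in the first experiment was accordingly low, with an SE of 0.50 for both gRNAs against CTRL on day 5.

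Reads on introns, which the authors defined as gene intervals outside the exons of APPRIS principal transcripts, were analysed in the first experiment. Of 110 introns assigned to the 6 genes, 13 passed the minimum of 1 for the average log2 CPM (5 of SP100, 4 of PML, 3 of SP110, and 1 of SP140L). This average includes the IFN-α libraries and the ADAR+hnRNPC libraries of day 5, in which the mean of each of the 13 was highest, so the counts of calls are a description and support nothing about the genes. With combined targeting on day 5, the 13 that passed were called higher, beside 13.5% of 21798 introns in either direction. The log2 fold changes ranged from 3.87 to 4.81 in SP110, from 2.14 to 3.27 in PML, and from 1.26 to 1.82 in SP100, and that of SP140L was 2.25. In the lifted annotation, the SP110 interval at 4.81 lies wholly in an exon of SP110-201, SP110-203, and SP110-209. Exons cover 48.3% of the PML interval chr15:74317269-74324912. Reads in such intervals can come from these exons. With IFN-α, 8 of the 13 that passed were called higher, 3 of SP110, 4 of PML, and 1 of SP100, beside 0.844% of all introns. With ADAR gRNA, none was called (1 at an unadjusted p under 0.05, none by limma-voom), beside 0% of all introns, and the introns of SP110 were at 0.37 to 0.46.

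With hnRNPC gRNA on day 5, 1 of the 13 introns was called, beside 6.36% of all introns. That count is near the share of all introns and is no result about these genes. The called intron was lower and is described here as a single interval. It was the last intron of SP100, chr2:231407899-231408805 (907 bases), which in the lifted annotation lies wholly in an exon of 3 other SP100 transcripts, SP100-202, SP100-209, and SP100-216. The interval had 2.34, 2.22, and 2.75 CPM after hnRNPC targeting and 5.50, 6.65, and 7.81 in CTRL cells (log2 fold change -1.45 ± 0.16, adjusted p = 2.0e-09). It was higher with IFN-α, at 9.53, 10.1, and 12.6 CPM, and with both gRNAs on day 5, at 16.2, 18.3, and 28.6. Relative to the gene count of SP100, its reads amounted on day 5 to 10.3 ± 0.910% with nontarget gRNA and to 5.73 ± 0.634% with hnRNPC gRNA, and on day 4 to 9.80 ± 0.629 and 7.20 ± 1.06%. ADAR+hnRNPC-targeted cells of day 5 had 9.37 ± 0.906%. The range with hnRNPC gRNA alone lay below that of CTRL cells on days 3, 4, and 5. With both gRNAs, it lay below on day 4 and overlapped on day 5. GFP gRNA cells were likewise below CTRL cells on day 4 (9.07 to 9.16%) and day 5 (8.32 to 9.21%). On those days, hnRNPC gRNA alone gave lower values than GFP gRNA (5.98 to 7.91% and 5.14 to 6.40%), and on day 3 the 2 overlapped. In CPM, the interval with GFP gRNA on day 5 (4.53 to 5.34) also lay below CTRL cells. These percentages were not tested.

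**Figure D4:**
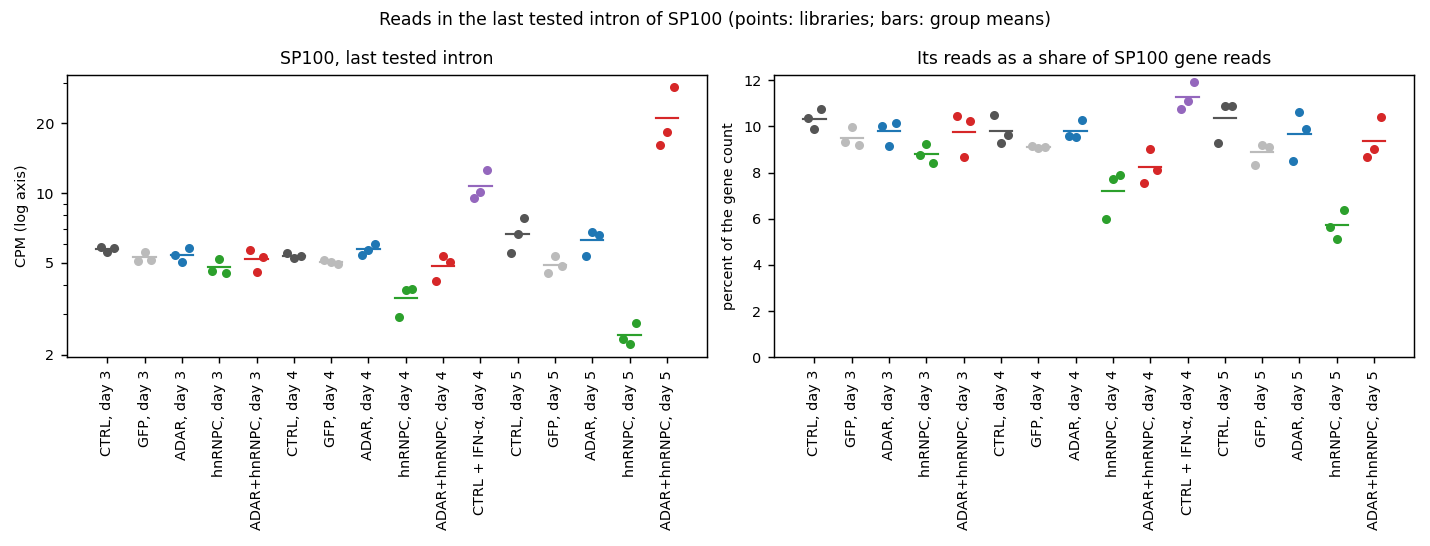
Reads in the last tested SP100 intron, as CPM on a log axis (left) and as a percent of the SP100 gene count (right), by gRNA group and day, with points for libraries and bars for means of 3. The hnRNPC libraries of day 5 have the lowest CPM (2.22 to 2.75) and the lowest mean percent (5.73%, range 5.14 to 6.40%).

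Editing-cluster-rich regions (ECRs) are intervals that the authors built around groups of A-to-I editing sites. One lay in PML (chr15:74318066-74320813) and one in SP110 (chr2:231030883-231033789). The former lies inside a tested PML intron, and the latter contains a tested SP110 intron. These ECRs and introns therefore share reads. With hnRNPC gRNA on day 5, neither was called, at -0.06 ± 0.18 for PML and 0.47 ± 0.24 for SP110 (0 of 2 at an unadjusted p under 0.05, 0 by limma-voom), beside 9.3% of 2528 ECRs. With both gRNAs, both were called, the ECR of SP110 at 4.70 ± 0.26 and that of PML at 2.49 ± 0.18, beside 16.7% of all ECRs. The authors kept editing sites that met a read minimum in the samples of any treatment, which favors regions high in some group. On day 5, SP110 sites had 161 to 219 reads per CTRL library and 3450 to 5625 with both gRNAs. PML sites had 227 to 387 and 1746 to 1977. These ECR calls are therefore a description and support nothing about the genes. On day 5, the SP110 ECR had a mean of 1.92 CPM with nontarget gRNA and 49.97 with both. The gene counts had changed by 4.38 for SP110 and 2.72 for PML.

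Editing sites were listed on the strand of PML (64 with a value in every library), SP110 (44), and SP100 (12) in the first experiment, and on none of SP140, SP140L, or DAXX. All 128 sites before removal of those with empty values lay at an A of GRCh37. Of the 64 PML sites, 52 were in its ECR, and all 44 SP110 sites lay in an exon of at least 1 transcript. The windows below show 25 bases of GRCh37 in transcript direction around sites that were among the 3 most edited of their gene in the 9 CTRL libraries together, with the edited adenosine in capitals.
SP110, chr2:231031946-231031970: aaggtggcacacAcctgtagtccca
SP110, chr2:231031874-231031898: cgcagtgagccaAgaatgcaccact
SP100, chr2:231380605-231380629: caggttcttgttAgtgcacagcaca
In the CTRL libraries, the edited base was read 16 times in 30 reads at the first SP110 site, 13 in 38 at the second, and 25 in 236 at the SP100 site. The SP110 sites shown were listed in the second experiment too, and the SP100 site was listed in the first alone.

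The authors kept only sites that passed an editing minimum in a sample without ADAR targeting. That choice favors lower values with ADAR gRNA, so the differences below are a description. Editing over all sites of a gene was lower with ADAR gRNA in PML on days 4 and 5. It was 2.74, 1.29, and 3.20% of reads in ADAR-targeted and 5.86, 4.41, and 7.09% in CTRL cells on day 4, without overlap. The difference was -3.37 percentage points on day 4 and -3.54 on day 5, each at p = 0.10 in a two-sided exact permutation test, the smallest p that 3 against 3 libraries allow, and -0.97 on day 3 (p = 0.40). With such groups no difference can reach 0.05. In SP110, the difference was between -2.71 and -2.82 points on the 3 days (p = 0.10, 0.50, and 0.20 on days 3, 4, and 5, exact permutation test). SP100, edited at 1.42 to 2.45% on average in CTRL cells, had differences of 0.16, -1.80, and 0.93 points (p = 0.70, 0.10, and 0.40 by the same exact permutation test). As 12 tests were made in this family, none can pass an adjustment.

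In ADAR+hnRNPC-targeted cells of day 5, PML was edited at 3.71 ± 0.864% and SP110 at 5.42 ± 0.824% (SD, n = 3), against 5.89 ± 1.07 and 7.18 ± 3.00% in CTRL cells, with groups that overlapped for SP110. The reads on SP110 sites had risen from 161 to 219 per CTRL library to 3450 to 5625, so that the later percentage is the more precise. With IFN-α, PML was at 10.6 ± 2.32% against 5.79 ± 1.34% in CTRL cells of day 4, without overlap, but it overlapped the GFP gRNA cells of that day (5.63 to 9.97%). SP110 was at 9.60 ± 0.401% against 8.57 ± 3.58%. hnRNPC-targeted cells had 9.09 ± 1.33% editing of PML on day 3 against 4.56 ± 1.35% in CTRL cells, but their range (7.62 to 10.2%) overlapped that of GFP gRNA cells (4.53 to 8.54%), and on days 4 and 5 it overlapped that of CTRL cells. These comparisons were not tested. All percentages pool sites of unequal coverage.

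Lists of related genes give the setting of these changes. Of 19 genes of the SUMO machinery, all tested, none was called with IFN-α or with both gRNAs on day 5 (median log2 fold change 0.03 in each case, with medians of 0.02 and -0.04 over all genes), beside 1.32% of all genes called with IFN-α and 15.6% with both gRNAs. Of 21 PML body partners and H3.3 chaperones, 4 rose and 2 fell with both gRNAs on day 5, beside 15.6% of all genes in either direction, at a median of -0.01. ISG20, an interferon-induced exonuclease of nuclear bodies, changed most, at 6.47 ± 0.34. H3-3A, 1 of the genes for histone H3.3, fell by 1.36 ± 0.07. With IFN-α, 1 gene of this list was called, ISG20 (3.64 ± 0.31), beside 1.32% of all genes. Of 10 tested readers with SAND, bromodomain, or PHD modules outside the SP family, none was called in either comparison (median 0.39 with both gRNAs). Of 10 tested genes of type I interferon signalling, 6 rose with both gRNAs on day 5 and 5 with IFN-α, beside 15.6% and 1.32% of all genes, at medians of 2.68 and 1.14. USP18, the negative regulator of the receptor, was at 6.27 ± 0.23, and IRF7, the master regulator of interferon genes, at 5.33 ± 0.21.

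Across the 48 libraries of the first experiment, log2 CPM of SP110 was most like that of IFIH1 (Pearson r = 0.995), the gene of the double-stranded RNA sensor MDA5, PARP9 (0.993), and HERC6 (0.990). PML was most like IFI35 (0.986), GBP4 (0.976), and DTX3L (0.974). SP140L had TNFSF10 (0.978), CD274 (0.977), and GBP5 (0.977) as its nearest genes, and SP100 had USP25 (0.982), TNFSF13B (0.972), and NAMPT (0.971). The leading partners of DAXX reached 0.426 (ZNF232), 0.377 (ANKHD1-EIF4EBP3), and 0.354 (LINC02615). Among the 6 genes, SP110 and PML had r = 0.958 and SP110 and SP140L 0.932, whereas DAXX had -0.22 to -0.09 with the other 5. These correlations are given as a description.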

How the data were processed

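RNA of Cas9-transgenic THP-1 clones was analysed in 48 and 18 libraries. The authors aligned reads with STAR 2.5.4a to GRCh37 and deposited raw counts of uniquely mapped reads per gene (featureCounts, exons, GENCODE V19), intron, and ECR, and counts of edited and of all reads per editing site. The strand setting of the counting is not given in the sources used here. Per the file headers each count column is 1 library, and 0 columns lacked a sample.

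Groups followed the sample labels. Genes (average log2 CPM of at least 0.5, 13193 and 13650 of 57820), introns (at least 1, 21798 of 197626), and ECRs (at least 4.5 on ECR totals, 2528 of 2875) were tested with edgeR 4.0.16 in R 4.3.3 (TMM, glmQLFit, glmQLFTest, 1 coefficient per group, Benjamini-Hochberg adjustment over all features tested), with library sizes from the gene totals. SE was the absolute log2 fold change divided by the square root of F. The interaction used the 12 libraries of a day, or all 18 of the second experiment. CPM used TMM factors and a prior count of 2 on the log2 scale. Recovery in simulated counts was scored by adjusted p alone, without the fold required for most calls. How often calls that also need a fold find a change of 1 was not measured. For IFN-α against CTRL on day 4 over 13193 genes, 95% of 100 genes changed by 1 on the log2 scale were recovered. Of 100 genes changed by 2, 100% were recovered. At a change of 1, recovery was 89% for the day 5 interaction (13433 genes), 81% for both gRNAs against CTRL in the wild-type clone (13650 genes), and, for hnRNPC against CTRL on day 5, 70% for introns (21876) and 92% for ECRs (2528). Alternatives were limma-voom, DESeq2, RLE factors, no filter, GFP gRNA as control, other sets of libraries, a replicate block, and each library left out. Editing was summed over sites with a value in every library.

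Lengths and positions came from GENCODE v44 lifted to GRCh37. The genes, lists, and tests were chosen with earlier results of these data known. Named beside the 6 genes were ADAR and HNRNPC, the 3 most changed called genes of each list (some named items are not reported here), the 3 genes most correlated with each tested gene, and the most changed called intron. The promoter run, PAX5, and DESeq2 calls were named after their values were seen. The study describes its replicates as independent.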

Additional observations from a re-analysis of the deposited data

Results flagged for a closer look

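The effect of 1 gRNA differed with the presence of the other for 4 genes on day 5 of the STING-deficient clone. Beyond the sum of the single effects, the change was 3.66 for SP110, 2.51 for SP140L, 2.35 for SP100, and 1.80 for PML on the log2 scale, each past an adjusted p of 0.05 in edgeR. Of all genes, 48.3% passed this rule on day 5, and 6.11% when an absolute interaction of at least 1 was also required. In every one of these genes, all 3 ADAR+hnRNPC libraries were above all 9 libraries of the CTRL, ADAR, and hnRNPC groups of that day. How many of all genes separated in this way was not counted, so the separation is a description.

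The effect of combined targeting also differed between days. Day 5 minus day 4 was 2.92 for SP110, 2.17 for PML, 1.97 for SP140L, and 1.69 for SP100. Day 4 minus day 3 was 1.25 for SP110. Each is a contrast of 4 groups in the fit of 48 libraries. Of all genes, 3.81% were called for day 5 minus day 4 and 1.16% for day 4 minus day 3.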

How the results depend on the processing

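For 195 results, 2261 alternative values were computed, and no direction reversed among values past an adjusted p of 0.05. DESeq2 called 1 gene in ADAR+hnRNPC against IFN-α (2 in edgeR), 3 in the day 4 interaction (0 in edgeR), and 2 in the wild-type interaction (0 in edgeR). Over all genes, DESeq2 called 838, 1717, and 3027 in these comparisons. The day 4 interaction had 2 calls with all 48 libraries fitted and 2 without the filter, and the wild-type interaction 1 without the filter. Of the introns, 24 in place of 13 were called for both gRNAs with a minimum of 0 for the average log2 CPM. Leaving out 1 library gave 0 to 1 calls for ADAR+hnRNPC against ADAR on day 4, 1 to 2 against IFN-α, 0 to 1 for the day 4 interaction, and, in the wild-type clone, 1 to 2 for ADAR, 1 to 3 for ADAR+hnRNPC, 0 to 1 for cytosolic against nuclear RNA, and 0 to 1 for the interaction. The causes were not tested. Without the filter, SP140 was at 1.45 ± 0.27 for both gRNAs on day 5 (edgeR, adjusted p = 9.0e-07). Without the filter, the day 5 interaction of DAXX also had an SE small for its spread, so p-values without the filter call for caution.

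With a replicate block, the day 4 interaction had 4 calls in place of 0. Same-numbered libraries had a mean correlation of deviations of 0.17 in the first experiment, the lowest being -0.37, and 40 of 48 libraries correlated best with their own number. In the second, the mean was 0.12, the lowest -0.34, and 16 of 18 correlated best with their own number. Libraries with different numbers had means of -0.08 in the first experiment and -0.12 in the second. This is a hint from the data of a pairing. The study took biological replicates from separate days, but which numbers share a day is not given in the sources used here, and pairs with a negative correlation occurred. In the main fits, the libraries were taken to share only a number, and whether they are paired was not settled. The block changed no other count of gene calls. A minimum of 10 reads per site in every library left 0 editing sites in the first experiment and gave no value.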
